A study of Microtus ochrogaster with 6 samples.

Results

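The 6 transcripts described here are the mitochondrially encoded messages for cytochrome c oxidase subunits 1, 2 and 3 (CO1, CO2 and CO3, complex IV of the respiratory chain), for ATP synthase subunits 8 and 6 (ATP8 and ATP6, complex V) and for cytochrome b (CYTB, complex III). They were chosen by 6 listed identifiers out of 19648 genes in the deposited gene table: ENSMOCG00000000016 for CO1, ENSMOCG00000000019 for CO2, ENSMOCG00000000021 for ATP8, ENSMOCG00000000022 for ATP6, ENSMOCG00000000023 for CO3 and ENSMOCG00000000035 for CYTB. The names rest on the order of the identifiers, which follows the order of genes along the mitochondrial genome. The deposited tables pair no identifier with a name, so no single name could be read from the files themselves. RNA was taken from the nucleus accumbens, the part of the ventral striatum that serves reward and social bonding, in juvenile prairie voles (Microtus ochrogaster). In the oxytocin group (3 libraries) the mothers received an injection of oxytocin before they gave birth; the mothers of the saline group (3 libraries) received saline instead. The question is whether oxytocin given to the mother before birth leaves a mark on gene expression in the brain of the young. Dose, exact age, sex and litter are not in the labels used here, nor do they state that each library stands for its own animal, so p-values measure only the spread from library to library, part of which may be technical.

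Mitochondria carry a small circular genome of their own, whose protein-coding genes all serve oxidative phosphorylation. Its genes are transcribed as long precursors, which are cut mostly at the transfer RNAs between the coding stretches, and the resulting messages receive short poly(A) tails. In mammals ATP8 and ATP6 overlap in different reading frames and are carried on a single message. Complex III passes electrons from ubiquinol to cytochrome c, complex IV passes them from cytochrome c to oxygen, and complex V uses the proton gradient to make ATP. All 3 complexes also need subunits encoded in the nucleus, and neurons draw heavily on them for ion pumping and synaptic transmission. Nuclear subunits and markers of cell types were not analysed here, because the reference table paired 0 of the deposited identifiers with a symbol.

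The label can be checked in part against the identifiers. Of the identifiers numbered 1 to 37, 13 were in the gene table: those numbered 6, 10, 16, 19, 21, 22, 23, 25, 27, 28, 32, 33 and 35. A mammalian mitochondrial genome has 37 genes, of which 13 encode proteins, and in their order these numbers are the places of the protein-coding genes among ribosomal and transfer RNA genes. The isoform table listed transcripts with all 37 numbers. The 7 remaining gene identifiers of this block fall at the places of complex I subunits.

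Libraries held 17652854 to 27786606 counts over all genes. The 6 transcripts together took between 4.16% of the counts (95% Wilson interval 4.15 to 4.17) in saline replicate 2 and 7.38% (7.37 to 7.39) in oxytocin replicate 1. Such intervals cover counting error only. The share was 5.40% and 5.14% in oxytocin replicates 2 and 3, and 6.29% and 6.34% in saline replicates 1 and 3. The libraries with the highest and the lowest share were thus in different groups, and they were the 2 shallowest libraries, with 18558975 and 17652854 counts. By mean count, which does not correct for length, CO1 ranked 1, CO3 ranked 2, ATP6 ranked 4, CYTB ranked 7, CO2 ranked 8 and ATP8 ranked 24 among all genes.

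None of the 6 transcripts passed the comparison of oxytocin with saline offspring by edgeR's quasi-likelihood test. Among 14500 tested genes, which included all 6, the test called 0% at an adjusted p of 0.05, and it called 0 of the 6. At an unadjusted p under 0.05 it gave 0 of the 6 and 1.62% of all tested genes, and the smallest unadjusted p among the 6 was 0.45, for CO2. DESeq2 called 0 of the 6 and 0.0282% of 17720 genes, and by limma voom, run with quality weights, 0 of the 6 passed. The share of all genes that passed by limma voom is not given here. In 0 of the 6 were the oxytocin libraries all above or all below the saline libraries, a pattern found in 5.75% of tested genes.

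CO1 encodes the catalytic core of cytochrome c oxidase, which holds the heme and copper site where oxygen is reduced. CO1 stood at 28434, 18860 and 19128 CPM (counts per 1000000 after TMM scaling) in oxytocin replicates 1, 2 and 3, and at 23296, 15036 and 23818 CPM in saline replicates 1, 2 and 3. The groups overlapped, with saline replicates 1 and 3 above oxytocin replicates 2 and 3. The means were 22140 ± 5452 and 20716 ± 4927 CPM (SD, n = 3 each). The log2 difference, oxytocin minus saline, was 0.10 with an SE of 0.24 (edgeR adjusted p rounded to 1), and its 95% interval ran from 0.72-fold to 1.59-fold.

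CO2, which carries the copper centre that takes up electrons from cytochrome c, stood at 7203, 5136 and 4942 CPM in oxytocin replicates 1, 2 and 3 and at 5541, 3909 and 5926 CPM in saline replicates 1, 2 and 3. Oxytocin replicate 1 was again highest and saline replicate 2 lowest. Its log2 difference of 0.17 (SE 0.21) was the largest of the 6 and lay within the spread between libraries, with a 95% interval of 0.80-fold to 1.58-fold.

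CO3, the third mitochondrially encoded subunit of complex IV, stood at 13992, 10528 and 9899 CPM in oxytocin replicates 1, 2 and 3, and in saline replicates 1, 2 and 3 at 11772, 7248 and 12881 CPM. Its log2 difference was 0.11 (SE 0.24), with an interval of 0.73-fold to 1.599-fold. Complex IV, as the sum of CO1, CO2 and CO3, averaged 39374 ± 8886 CPM with oxytocin and 36476 ± 8962 CPM with saline (SD, n = 3 each; two-sided exact permutation p = 0.8, adjusted p = 1 over 4 sums). With 3 libraries against 3, no exact p can be below 0.1.

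ATP6 forms the channel through which protons pass the membrane part of ATP synthase, and ATP8 is a small subunit beside it. ATP6 stood at 12508, 9054 and 8705 CPM in oxytocin replicates 1, 2 and 3, and at 11471, 6916 and 11866 CPM in saline replicates 1, 2 and 3. For ATP8 the oxytocin libraries gave 2062, 1633 and 1625 CPM and the saline libraries 1839, 1140 and 2051 CPM, in replicate order. The level of both was highest in oxytocin replicate 1 and lowest in saline replicate 2, and for ATP8 saline replicate 3 was nearly as high as oxytocin replicate 1.

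The group means of ATP6 were nearly equal, at 10089 ± 2102 and 10085 ± 2751 CPM (SD, n = 3 each), and its log2 difference of 0.00057 (SE 0.24) had a 95% interval of 0.67-fold to 1.48-fold. For ATP8 the log2 difference was 0.08 (SE 0.22), with an interval of 0.74-fold to 1.52-fold. Complex V, as the sum of both, averaged 11862 ± 2352 CPM with oxytocin and 11762 ± 3223 CPM with saline (SD, n = 3 each; two-sided exact permutation p = 0.9, adjusted p = 1).

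CYTB, the single subunit of complex III that mitochondria encode, holds the heme groups of the Q cycle. CYTB stood at 10550, 7372 and 7110 CPM in oxytocin replicates 1, 2 and 3, and at 9512, 6068 and 9240 CPM in saline replicates 1, 2 and 3. The log2 difference was 0.01 (SE 0.23), with a 95% interval of 0.70-fold to 1.46-fold (exact permutation p = 1 for the log2 level, two-sided, adjusted p = 1). In this bulk tissue, fewer cells of a type rich in mitochondria and less mitochondrial RNA per cell cannot be told apart.

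**Figure D1:**
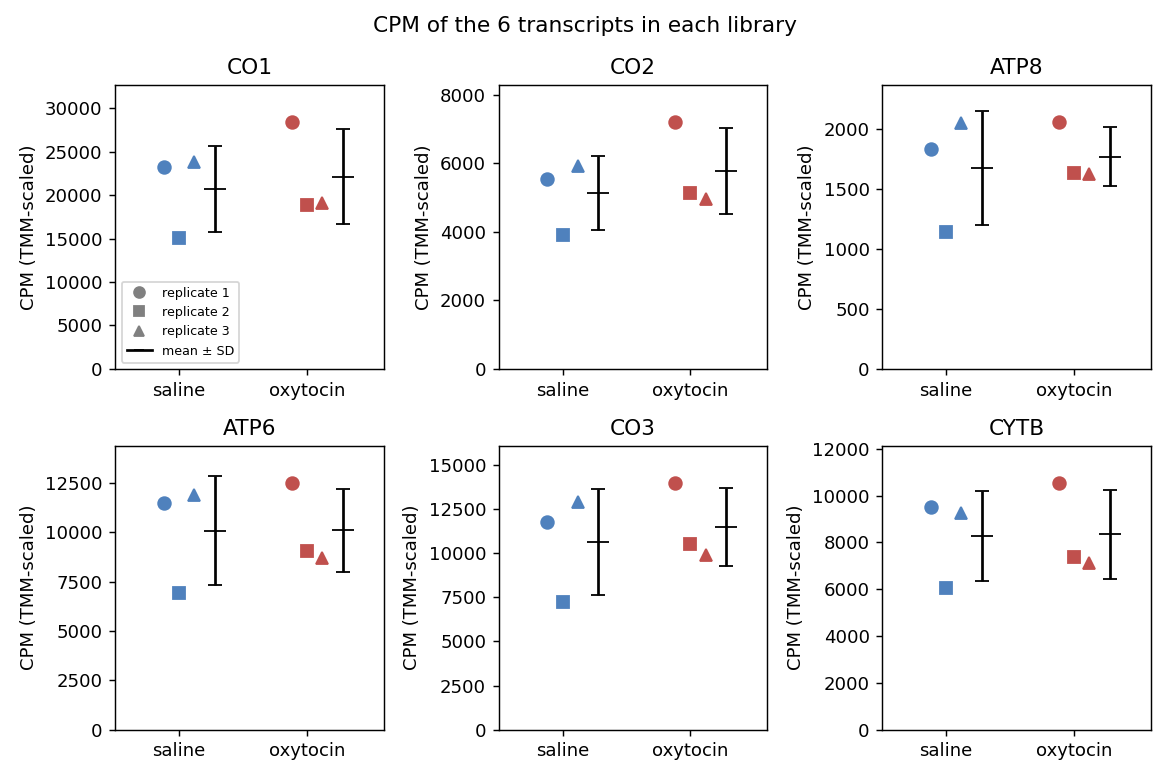
TMM-scaled CPM (y axis, from 0) of CO1, CO2, ATP8, ATP6, CO3 and CYTB in the saline (blue) and oxytocin (red) libraries, with the replicate number as the symbol and the mean and SD of 3 libraries as the bar. In all 6 panels oxytocin replicate 1 is highest, saline replicate 2 is lowest and the groups overlap.

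The direction of these differences depended on single libraries. All 6 were above 0 with all libraries, at a median of 0.09 against a median of -0.00064 over all tested genes. The sign of ATP6 turned with DESeq2 size factors, in DESeq2 and without the filter on low counts, at -0.00077, -0.0015 and -0.0034. Without oxytocin replicate 1 all 6 were below 0, from -0.19 for CYTB to -0.02 for CO2. Without saline replicate 2, 5 of the 6 were below 0, from -0.21 for ATP6 to -0.09 for CO1, and CO2 stood at 0.0063. None of these values passed the test of the method that gave it.

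**Figure D2:**
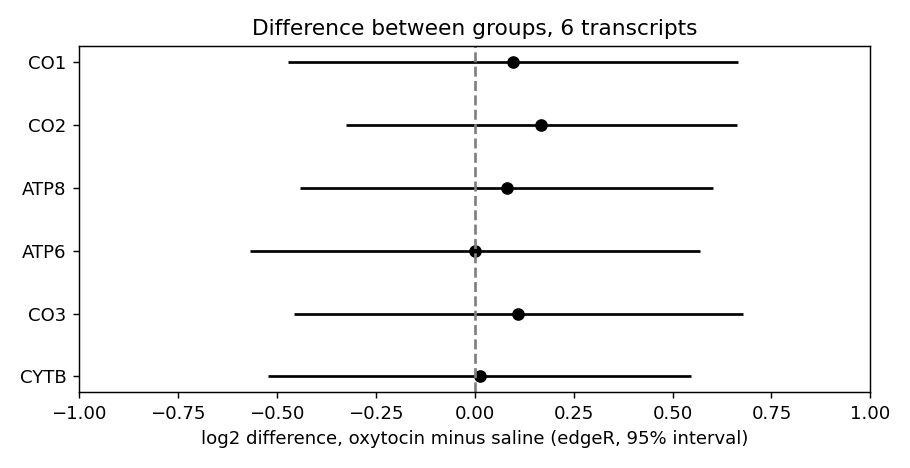
Log2 difference between groups (x axis, oxytocin minus saline) of the 6 transcripts on the y axis, from edgeR over 6 libraries; points are estimates and lines are 95% intervals. Each interval includes 0, and none reaches 1 (2-fold) in either direction.

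The 6 transcripts varied more between libraries of a group than most abundant genes did. Their within-group SD of log2 CPM was 0.31 for CO2, 0.34 for CYTB, 0.35 for ATP8, 0.36 for CO1 and 0.37 for both CO3 and ATP6. The median over 5911 genes of at least 32 CPM, these included, was 0.14. Of those genes, 4.91% had an SD at least as large as ATP6 and 8.63% one at least as large as CO2. The highest library stood above the lowest by 1.74-fold for CYTB, 1.81-fold for ATP6 and ATP8, 1.84-fold for CO2, 1.89-fold for CO1 and 1.93-fold for CO3.

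The 6 transcripts moved together across the 6 libraries. Over the 15 pairs of transcripts, Pearson's r of log2 CPM ran from 0.92 (ATP8 and CYTB) to 0.99 (ATP8 and CO3), with a median of 0.97. Exact permutation p-values ran from 0.0014 to 0.0069 (adjusted 0.0035 to 0.0069 over the 15 pairs), and Spearman's rho from 0.89 to 1 (exact permutation p from 0.0028 to 0.033). CO2, ATP8, ATP6 and CO3 put the 6 libraries in the same order, with a rho of 1 for each of the 6 pairs among them. All points of such a correlation share a library with its depth and composition, and the pairs are not independent of each other. In mammals ATP8 and ATP6 are carried on a single message, so their pair does not compare separate messages.

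Correlations stayed high without the highest and lowest library. Without these, oxytocin replicate 1 and saline replicate 2, r over the remaining 4 libraries ran from 0.879 to 0.999. Among these 4, both oxytocin libraries lay below both saline libraries for every transcript. For CO1 they stood at 18860 and 19128 against 23296 and 23818 CPM. This r therefore largely reflects a single contrast between the groups, and covariation apart from that contrast was not tested in these libraries. As a description, r between deviations from the group means ran from 0.935 to 0.995 (median 0.98), with the highest and lowest library included. With any single library left out, the median r lay between 0.95 and 0.98.

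**Figure D3:**
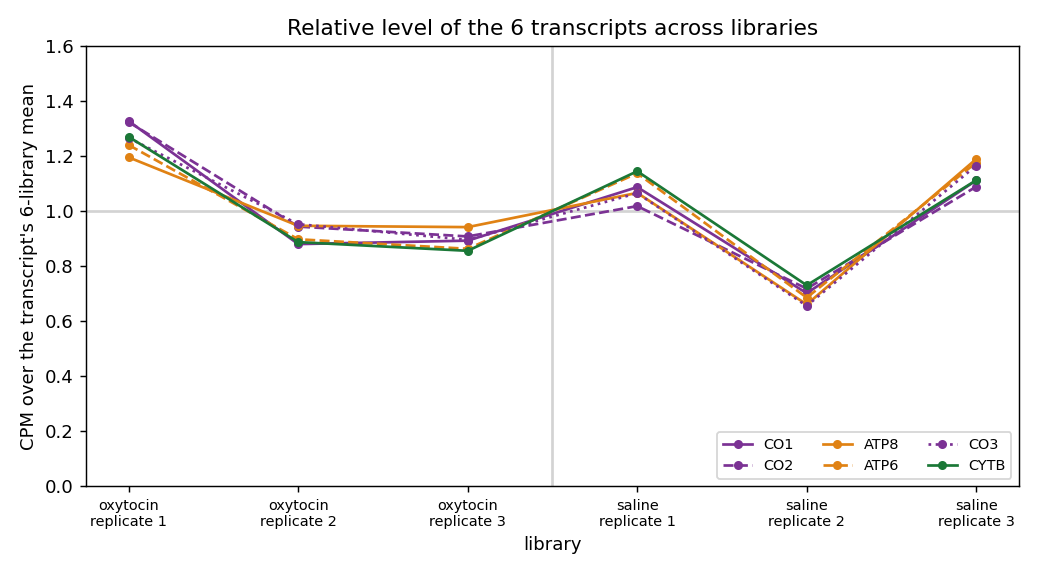
CPM of each transcript divided by its own mean over the 6 libraries (y axis, from 0), with a line per transcript and the libraries on the x axis, complex IV in purple, complex V in orange and complex III in green. The 6 lines run close together, above 1 in oxytocin replicate 1 and saline replicates 1 and 3, and below 1 in the other 3 libraries.

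The remaining block identifiers moved with them. The 7 took 2.55% of counts in saline replicate 2 and 4.51% in oxytocin replicate 1, and their summed share correlated with that of the 6 at r = 0.98 (exact permutation p = 0.0069, adjusted p = 0.028 over 4 library measures; rho 0.94, exact permutation p = 0.017; r = 0.97 without the 2 libraries farthest from the median). Each of the 7 correlated with the mean log2 CPM of the 6 at r between 0.80 and 0.98. The share of the 6 was not found to follow the total count of a library (r = 0.14, exact permutation p = 0.76, adjusted p = 0.76; rho 0.26, exact permutation p = 0.66), but without the 2 libraries farthest from the median depth r was 0.71, so over so few libraries this relation rests on which are used. It was likewise not found to follow the library number (r = -0.38, exact permutation p = 0.47, adjusted p = 0.76; rho -0.31, exact permutation p = 0.56; r = -0.43 without the 2 farthest). For the number of genes detected r was 0.21 (exact permutation p = 0.68, adjusted p = 0.76; rho 0.09, exact permutation p = 0.92), and without the 2 libraries farthest from the median it turned to -0.87, so this relation too rests on which libraries are used.

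Few other abundant genes followed the same pattern at an r of at least 0.9. This cutoff is stricter than the lowest r of the 7 remaining block identifiers, 0.80. Of 5869 genes outside the block whose mean log2 CPM reached 5, 14 (0.239%) had an r of at least 0.9 with the mean of the 6, 18 (0.307%) had an r of -0.9 or lower, and the median was -0.07. The 2 most alike were ENSMOCG00000005276 (r = 0.98 over 6 libraries) and ENSMOCG00000021133 (r = 0.98), which the files do not pair with names. ENSMOCG00000005276 varied by 1.09-fold between its lowest and highest library and ENSMOCG00000021133 by 1.25-fold, both less than any of the 6. With 6 points these values are a description only.

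Ratios within a library need no scaling between libraries and varied far less than the levels. The share of each transcript among the counts of the 6 had a coefficient of variation over the libraries of 2.14% for CO1, 3.28% for ATP6, 3.73% for CYTB, 3.91% for CO3, 4.55% for CO2 and 5.74% for ATP8. The coefficient of variation of the CPM was 19.98% to 21.99%. CO1 took 35.87% to 38.04% of the counts of the 6, CO3 17.98% to 20.02%, ATP6 16.7% to 18.1%, CYTB 13.8% to 15.1%, CO2 8.74% to 9.77% and ATP8 2.76% to 3.16%. These shares are not corrected for length and serve only to compare libraries.

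Within complex IV no ratio between subunit messages differed beyond the spread between libraries. CO1 counts were 3.95, 3.67 and 3.87 times those of CO2 in oxytocin replicates 1, 2 and 3 and 4.20, 3.85 and 4.02 times in saline replicates 1, 2 and 3, so the groups overlapped. The log2 difference in this ratio was -0.07 (exact permutation p = 0.3, two-sided, adjusted p = 0.45 over 6 ratios). It was -0.041 without oxytocin replicate 2 and -0.039 without saline replicate 1. The ratio of CO1 to CO3 ran from 1.79 in oxytocin replicate 2 to 2.07 in saline replicate 2 (log2 difference -0.04, exact permutation p = 0.6, adjusted p = 0.7). CO2 to CO3 ran from 0.46 in saline replicate 3 to 0.54 in saline replicate 2 (log2 difference 0.03, exact permutation p = 0.7, adjusted p = 0.7), so the saline libraries alone spanned its whole range. The sign turned for CO1 to CO3 without oxytocin replicate 2 (0.012) or saline replicate 2 (0.0024), and for CO2 to CO3 without saline replicate 3 (-0.0096).

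For ATP8 and ATP6, the overlapping pair, the groups also overlapped. The ratio of ATP8 to ATP6 counts was 0.165, 0.180 and 0.187 in oxytocin replicates 1, 2 and 3 and 0.160, 0.165 and 0.173 in saline replicates 1, 2 and 3. Oxytocin replicates 2 and 3 were above all saline libraries and oxytocin replicate 1 was among them (log2 difference 0.09, exact permutation p = 0.2, two-sided, adjusted p = 0.4). The difference was 0.145 without oxytocin replicate 1 and 0.055 without oxytocin replicate 3. The sources used here do not give how reads in the shared stretch were assigned between both genes, so the split of counts between ATP8 and ATP6 is uncertain. For their sum, complex V over complex IV averaged 0.302 ± 0.0081 with oxytocin and 0.321 ± 0.011 with saline (SD, n = 3 each; log2 difference -0.08, exact permutation p = 0.2, adjusted p = 0.4).

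CYTB relative to complex IV was the single ratio of the 6 in which the groups did not overlap. It was 0.213, 0.214 and 0.209 in oxytocin replicates 1, 2 and 3, and 0.234, 0.232 and 0.217 in saline replicates 1, 2 and 3. All oxytocin libraries were below all saline libraries, with saline replicate 3 nearest to them. The means were 0.212 ± 0.0022 and 0.228 ± 0.0094 (SD, n = 3 each), a log2 difference of -0.10, with an exact permutation p of 0.1, the smallest this design allows, and an adjusted p of 0.4 over the 6 ratios. With 3 libraries against 3 no difference could pass this test at 0.05, so it cannot decide on this one.

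Of all 14497 tested genes outside complex IV, 1.52% had a ratio to the complex IV sum that did not overlap between the groups. Few of those genes share the variation between libraries of the mitochondrial transcripts (14 of 5869 abundant genes, above), so this share is no close measure for CYTB. Among the 10 block identifiers outside complex IV, 2 did not overlap over the complex IV sum, CYTB and ATP6 (log2 difference -0.10 for both). A lower ratio with oxytocin was not particular to these 2. With overlapping groups, the log2 difference was -0.24, -0.11, -0.09, -0.08 and -0.04 for the identifiers numbered 25, 10, 6, 32 and 28. It was -0.0045 for ATP8, and above 0 for those numbered 27 (0.04) and 33 (0.06). All 10 ratios share the complex IV sum. The coefficient of variation of the 6 ratios over the libraries was 4.27% to 5.96%, and their counting error alone, as an SE from the counts, was 0.19% to 0.75%.

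**Figure D4:**
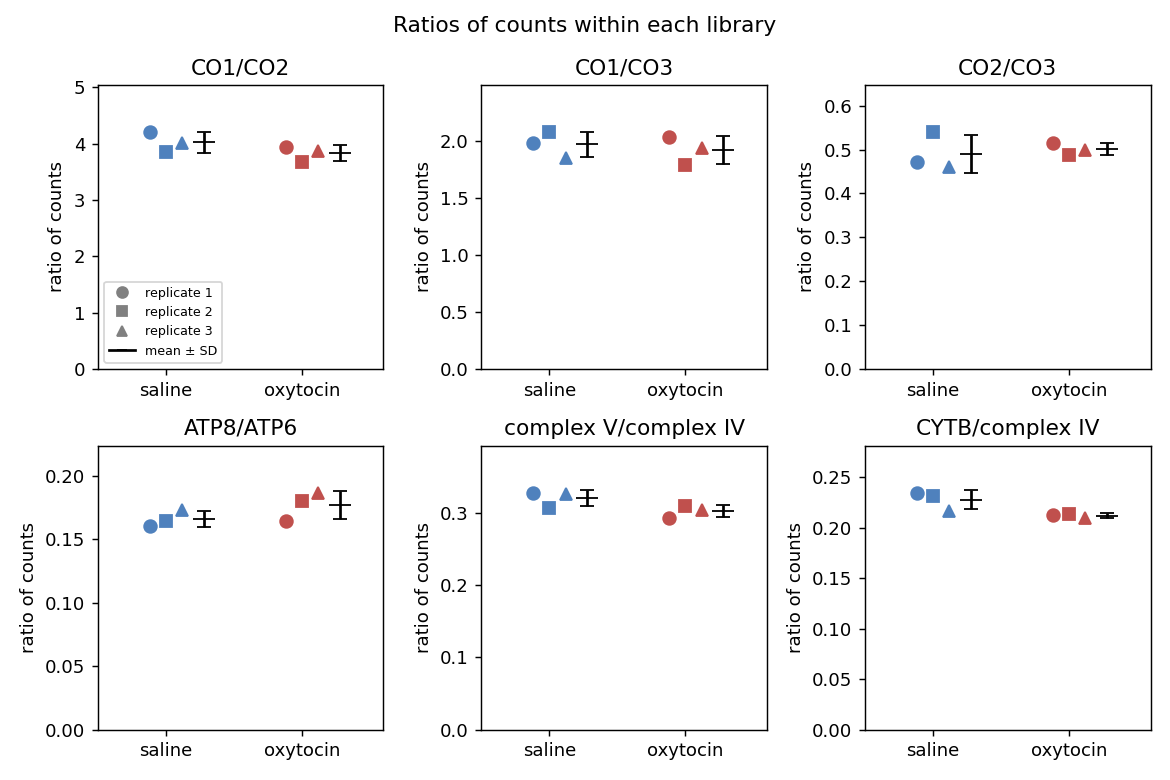
Ratios of counts within each library (y axes, from 0) for the 6 ratios named above the panels, with saline libraries in blue, oxytocin libraries in red, the replicate number as the symbol and the mean and SD of 3 libraries as the bar. Only in the panel of CYTB over complex IV (exact permutation p = 0.1, adjusted p = 0.4) do the groups not overlap.

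The isoform table allowed a comparison between genes per length for 3 of the 6. Its values are abundances scaled by a constant for each library and not read counts, and they were expressed here in ppm, units per 1000000 of the library's isoform total. The table does not tie transcripts to genes. Transcripts were matched to genes by the number in the identifier, so ENSMOCT00000000016 stands for CO1, ENSMOCT00000000019 for CO2 and ENSMOCT00000000035 for CYTB. Over the 6 libraries their log2 values followed the log2 of gene counts over the library total, without TMM scaling. The r was 0.99, 0.98 and 0.99, in the same libraries. The ratio of CO1 to CO2 was 2.22 to 2.25 times larger in counts than in isoform values, and that of CO1 to CYTB 1.458 to 1.495 times. If the isoform values are per length, these factors are ratios of transcript length, and their order (CO1 longest, then CYTB, then CO2) is that of the proteins in mammals.

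On this scale CO1 had 27290, 21387 and 21319 ppm in oxytocin replicates 1, 2 and 3, against 24586, 17173 and 24339 ppm in the saline ones. CO2 ran from 10041 ppm (saline replicate 2) to 15387 ppm (oxytocin replicate 1), and CYTB from 10108 ppm to 15127 ppm in the same libraries. Read as levels per length, these values put CO1 as the most abundant of the 3 in every library, by 1.63 to 1.90 times over CO2 and by 1.66 to 1.83 times over CYTB. Whether the poly(A) libraries captured the 3 messages equally was not tested. CO2 and CYTB were close to each other, with a ratio of 1.02, 1.06 and 1.06 in oxytocin replicates 1, 2 and 3 and of 0.877, 0.993 and 0.959 in saline replicates 1, 2 and 3. The nearest libraries were oxytocin replicate 1 and saline replicate 2. A ratio above or below 1 gives an order of levels only if the values are per length. The exact test cannot decide on the difference between groups, since its p cannot be below 0.1 (below).

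The groups overlapped for CO1 over CO2 on this scale (exact permutation p = 0.3, adjusted p = 0.3 over 3 ratios). They did not overlap for CO1 over CYTB and CO2 over CYTB (log2 differences 0.07 and 0.15, exact permutation p = 0.1 for both, the smallest possible, adjusted p = 0.15). For CO1 over CYTB the gap was narrow, from 1.729 in oxytocin replicate 2 to 1.724 in saline replicate 3. In gene counts the ratio of CO1 to CYTB was lower in oxytocin replicate 2 than in saline replicate 3, so there the groups overlapped. These ratios come from the same libraries and share CYTB, so they add no independent support to the ratio of CYTB to complex IV. Of 4961 isoforms with a mean of at least 32 ppm, 1.63% had a ratio to the CYTB transcript that did not overlap between groups. Few abundant genes shared the variation of the mitochondrial transcripts (above), so this share too is no close measure for these ratios.

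The transcripts numbered as ATP8, ATP6 and CO3, which lie next to each other, had almost no abundance in the isoform table. ENSMOCT00000000021 stood at 0.315 to 0.522 ppm, ENSMOCT00000000022 at 0.270 to 0.437 ppm and ENSMOCT00000000023 at 0.235 to 0.392 ppm over the 6 libraries. The gene table gave the same 3 numbers 1140 to 13992 CPM. The isoform table also lists assembled isoforms, which it does not tie to genes, and whether these hold the reads of ATP8, ATP6 and CO3 was not tested. No level per length is therefore given for these 3.

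**Figure D5:**
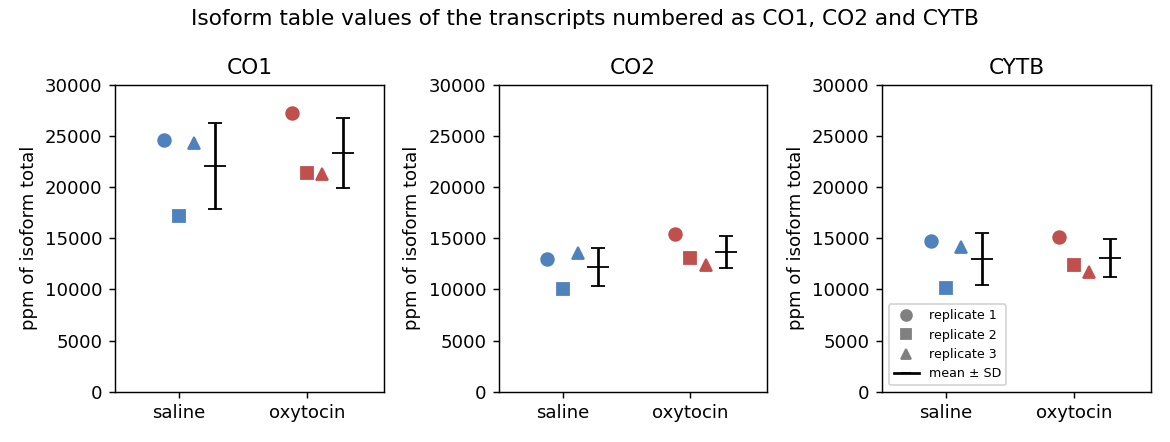
Isoform table values (y axes, ppm of the library's isoform total, from 0) of the transcripts numbered as CO1, CO2 and CYTB, with saline libraries in blue, oxytocin libraries in red, the replicate number as the symbol and the mean and SD of 3 libraries as the bar. CO1 is above CO2 and CYTB in each library, and for each of the 3 transcripts the groups overlap.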

How the data were processed

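Directional poly(A) libraries were made from nucleus accumbens RNA, per the labels' protocols. The submitters' processing notes name Trim Galore, kallisto, StringTie and DESeq2 without versions or roles; build, annotation and strand setting are not given in the sources used here. Of the files, the gene table the authors deposited holds whole-number counts, and whether these were rounded from estimates is not known. The deposited isoform table holds a signal, an abundance multiplied by a constant for each library.

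The members, lists and tests were chosen with earlier results of these data known. All genes were fitted with edgeR 4.0.16 in R 4.3.3: filterByExpr (minimum count 10, minimum total 15), TMM scaling and robust quasi-likelihood fits over 6 libraries with a single factor, the mother's treatment. Adjustment followed Benjamini and Hochberg over the 14500 tested genes. SEs were the absolute log2 difference over the square root of F. DESeq2 1.42.0 and limma 3.58.1 voom were alternatives. Sums, ratios and correlations were tested per library by exact permutation (SciPy 1.17.1). The edgeR fit was run on simulated data with known differences, and the outcome is not given here. The simulated counts were drawn independently, without variation shared between genes. All 6 members are named, with the 2 abundant genes most correlated with their mean. Libraries differed by more than sampling noise (chi-square per degree of freedom at least 17.65), so none was treated as a duplicate. Lists by gene symbol were not used, since identifiers have no symbols here.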

Additional observations from a re-analysis of the deposited data

How the results depend on the processing

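None of the 6 transcripts was called by edgeR, DESeq2 or limma voom under any of the 13 alternatives, among them other scalings, mitochondrial rows left out of library sizes, no filter and each library left out. Apart from DESeq2, the share of all genes called under these alternatives is not given here. Directions were not stable. ATP6 stood at -0.00077 with DESeq2 size factors, -0.0034 with no filter and -0.0015 with DESeq2. With 1 library left out the log2 difference ran from -0.12 to 0.21 for CO1, -0.024 to 0.29 for CO2, -0.13 to 0.25 for ATP8, -0.21 to 0.13 for ATP6, -0.10 to 0.27 for CO3 and -0.19 to 0.12 for CYTB. In the log2 of summed CPM, the difference ran from -0.10 to 0.25 for complex IV and -0.22 to 0.18 for complex V. It ran from -0.19 to 0.13 for complex III and -0.14 to 0.21 for all 6. Over ratios it ran from -0.081 to 0.012 for CO1/CO3 and -0.0096 to 0.11 for CO2/CO3. The cause was not tested. The 4 other ratios kept their direction, at -0.10 to -0.04 for CO1/CO2, 0.06 to 0.15 for ATP8/ATP6, -0.11 to -0.06 for complex V over complex IV and -0.14 to -0.08 for CYTB over complex IV. All 15 correlations kept their sign under other scalings and within groups. Same-numbered libraries deviated together with correlations of 0.065, 0.0019 and 0.40, so the numbers were not taken as pairs; with the replicate number as a block 0 members were called, at log2 differences of 0.02 (CYTB) to 0.17 (CO2), and 3 of 6 libraries correlated best with their own number. Leaving mitochondrial rows out for sums, the isoform ratios and the correlations without 1 library were added after seeing the data. Ratios of other genes to complex IV and of other isoforms to the CYTB transcript were not among the planned comparisons. What depth adds to the spread between libraries was not tested.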
